A study of Mus musculus with 2 samples.

Results

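The 8 genes encode ion channels and solute transporters grouped under the melanosome, the organelle in which pigment cells make melanin, and its endosomal precursors. They were taken by name, *Oca2*, *Slc24a5*, *Slc45a2*, *Slc24a4*, *Trpm1*, *Tpcn2*, *Mfsd12* and *Atp7a*, out of 32285 genes counted in both libraries, and all 8 had UMIs (unique molecular identifiers, each standing for 1 captured transcript) in both. They were measured in 2 libraries of droplet scRNA-seq, each of GFP+ cells sorted from mouse back skin. One held activated melanocyte stem cells (McSCs) of anagen II hair follicles, taken 4 days after depilation of mice 8 weeks of age. The other held differentiated melanocytes dissected from the hair bulb of anagen VI follicles in mice 5 weeks of age. Both were made from *Dct-rtTA; tetO-H2B-GFP* mice, in which doxycycline lets the *Dct* promoter drive a nuclear GFP, so that the sort took cells in which a melanocyte promoter had been active. Each library combined the cells of 4 mice and was not replicated. Early-anagen cells were released from epidermis with trypsin, and bulb cells from dissected bulbs with collagenase II and dispase. The early-anagen library was prepared with version 3 of the 3′ kit and the bulb library with version 2. Condition, age, depilation, dissociation, kit and depth thus cannot be told apart.

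Tyrosinase, which catalyses the first step of melanin synthesis, works poorly in an acidic organelle and needs copper. Channels and transporters of the melanosome set its pH and ion content, import cysteine for the red-yellow pigment and deliver copper to the enzyme. Loss of several of them lightens coat, hair, skin or eyes in mice and people, and *OCA2* and *SLC45A2* are genes of human oculocutaneous albinism.

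Cells were kept when they had at least 1 *Dct* UMI, fewer than 3 UMIs of *Krt10* and *Krt14*, under 5% mitochondrial UMIs, and more than 10000 UMIs in the early-anagen library or 5000 in the bulb library. These limits left 2785 of 11010 early-anagen barcodes, with a median of 24528 UMIs, and 3734 of 4327 bulb barcodes, with a median of 14286.5. Among barcodes that passed the UMI and mitochondrial limits, 677 of 3464 at early anagen and 29 of 3774 in the bulb failed the keratin limit. A looser keratin limit was not tried. No cell barcode was shared between the kept cells of the libraries. The cells carried the melanocyte genes of their labels. *Pmel*, *Mlana* and *Tyrp1* were each found in at least 97.7% of the cells of either library after every cell had been thinned to 5000 UMIs. The 8 melanocyte markers summed to 24639 CPM (UMIs scaled to a total of 1000000) at early anagen and 67431 CPM in the bulb. Of these, *Kit* (486 and 108 CPM) and *Mitf* (446 and 330 CPM) were lower in the bulb and the others higher. At 5000 UMIs *Kit* was found in 86.9% and 40.7% of cells, *Mitf* in 74.3% and 75.0%, and *Sox10* in 43.9% and 51.3%. The 6 keratinocyte markers summed to 50.3 and 21.4 CPM, with *Krt15* and *Krt1* at 0 in the bulb. *Krt10*, which the gate limits, was the only keratinocyte marker higher in the bulb, at 13.1 and 16.2 CPM. The fibroblast, immune, endothelial, Schwann, red cell and hair matrix lists summed to at most 7.09 CPM in either library. Within the gate, 61 early-anagen cells (2.19%) and 22 bulb cells (0.589%) had less than 25% of the median summed level of *Tyr*, *Tyrp1*, *Pmel* and *Mlana*.

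All 8 genes are protein-coding. On GRCm38, *Oca2* spans 296.8 kb of chromosome 7 from 56239760 to 56536518, and *Trpm1* lies on the same chromosome from 64153835 to 64269775. *Tpcn2*, on the minus strand, occupies chromosome 7 from 145186524 to 145284011. *Slc24a5* lies on chromosome 2 from 125068124 to 125088677, *Slc45a2* on chromosome 15 from 11000721 to 11029233 and *Slc24a4* on chromosome 12 from 102128733 to 102267091. *Mfsd12* lies on chromosome 10 from 81357491 to 81366225 and *Atp7a* on chromosome X from 106027276 to 106124926. The annotation has *Mir211* and *Gm44719* overlapping *Trpm1* and *1810010D01Rik* overlapping *Tpcn2* on the same strand. Whether these overlaps affected the UMI counts of *Trpm1* and *Tpcn2* was not tested.

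The 250 bases upstream of the transcription start are shown for the members that hold a core motif of MITF, the basic helix-loop-helix factor that drives pigment genes. RefSeq (GRCm38.p6) gave a window for 7 of the 8 members, with 2 starts for *Trpm1*, and none for *Slc45a2*. The motifs searched were CATGTG and CACGTG on both strands, where CATGTG reads CACATG on the other strand, and capitals mark each match, 5′ to 3′.
Oca2 chr7:56239509-56239758, + strand: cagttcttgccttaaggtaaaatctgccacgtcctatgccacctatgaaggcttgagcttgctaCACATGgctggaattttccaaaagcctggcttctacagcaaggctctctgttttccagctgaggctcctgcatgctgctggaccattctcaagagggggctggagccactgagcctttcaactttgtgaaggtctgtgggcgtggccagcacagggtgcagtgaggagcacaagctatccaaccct
Slc24a5 chr2:125067877-125068126, + strand: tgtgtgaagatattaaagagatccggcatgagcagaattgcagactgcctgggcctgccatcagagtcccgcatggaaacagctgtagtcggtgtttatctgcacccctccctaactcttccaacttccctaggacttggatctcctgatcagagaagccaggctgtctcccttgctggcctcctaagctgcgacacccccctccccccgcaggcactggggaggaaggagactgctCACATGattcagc
Slc24a4 chr12:102128477-102128726, + strand: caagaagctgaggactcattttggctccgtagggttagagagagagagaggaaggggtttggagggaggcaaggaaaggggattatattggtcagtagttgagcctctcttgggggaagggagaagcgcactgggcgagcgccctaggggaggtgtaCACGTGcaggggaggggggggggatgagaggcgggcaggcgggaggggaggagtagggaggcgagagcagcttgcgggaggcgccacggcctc
Trpm1 first start chr7:64153585-64153834, + strand: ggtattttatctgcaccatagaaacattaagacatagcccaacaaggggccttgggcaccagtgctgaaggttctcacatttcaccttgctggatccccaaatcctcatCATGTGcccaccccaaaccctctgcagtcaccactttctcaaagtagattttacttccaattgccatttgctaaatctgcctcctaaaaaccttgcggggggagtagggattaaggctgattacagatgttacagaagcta
Trpm1 second start chr7:64185209-64185458, + strand: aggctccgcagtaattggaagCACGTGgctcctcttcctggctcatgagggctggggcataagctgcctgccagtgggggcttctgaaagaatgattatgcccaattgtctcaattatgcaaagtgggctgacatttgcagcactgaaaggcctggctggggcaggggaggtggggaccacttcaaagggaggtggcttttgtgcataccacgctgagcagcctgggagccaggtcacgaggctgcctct
Atp7a chrX:106026974-106027223, + strand: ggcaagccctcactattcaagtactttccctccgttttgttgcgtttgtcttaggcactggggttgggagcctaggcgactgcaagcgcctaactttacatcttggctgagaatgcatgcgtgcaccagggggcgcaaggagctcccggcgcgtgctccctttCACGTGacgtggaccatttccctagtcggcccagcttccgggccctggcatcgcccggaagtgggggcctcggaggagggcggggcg
A match was present in 6 of the 8 windows. Of 32851 windows of the same length upstream of annotated mouse transcription starts, 17.6% held either motif (12.3% for CATGTG and 6.02% for CACGTG). In *Oca2* the CATGTG core lay 186 bases before the start and in *Slc24a5* it lay 13 bases before it. *Slc24a4* held CACGTG at 93 bases. Each of the starts of *Trpm1* had a match, CATGTG at 141 bases for the first and CACGTG at 229 bases for the second. *Atp7a* held CACGTG at 87 bases, and its level was lower in the bulb, unlike that of the other carriers. No match was found in the windows of *Tpcn2* and *Mfsd12*. The SOX core ACAAAG, searched on both strands, was found for *Oca2* and *Mfsd12* and in 16.5% of all windows. The longer AGTCATGTG, which contains CATGTG, was in none of the members' windows and in 0.228% of all windows. These matches describe the letters only, and a link between them and the levels was not tested.

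The first comparison asked how far early-anagen McSCs carried the ion-handling equipment of mature melanocytes. For 7 of the 8 genes the level was more than 2-fold higher in bulb melanocytes, whereas *Atp7a* was lower. *Tpcn2* stayed under 10 CPM in both libraries, so 7 of the 8 were among the genes over which the background was counted, 6 of them over 2-fold higher. Among the 8020 genes that reached 10 CPM in at least 1 of the libraries, 16.3% were over 2-fold higher in the bulb and 28.7% were over 2-fold lower. On a log2 scale, the ratio of the bulb to early anagen had a median of 2.40 for the 8 genes and -0.19 for the 8020. Together the 8 genes made up 2000 CPM at early anagen and 11252 CPM in the bulb. Levels were UMIs summed over the kept cells of a library. The brackets hold exact 95% intervals, which cover counting error only. As neither library was replicated, no test was made between them. Since 3′ UMI counts were not scaled by transcript length, orders of level between genes are orders of captured transcripts.

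**Figure D1:**
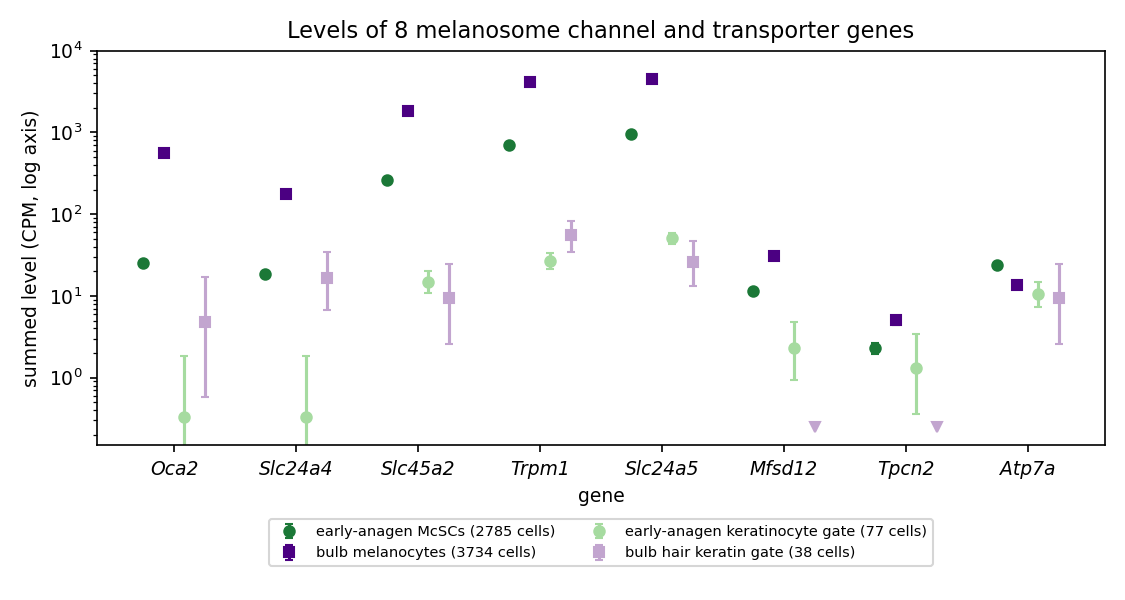
Summed level in CPM (log axis) of each gene in early-anagen McSCs, bulb melanocytes and a keratin gate of each library, with exact 95% Poisson intervals, triangles marking 0 UMIs. *Slc24a5*, *Trpm1* and *Slc45a2* led in both melanocyte groups, *Oca2* went from 25.1 to 554 CPM, and *Atp7a* was the 1 gene lower in the bulb.

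*Oca2*, whose product is a chloride channel that raises melanosomal pH, had the widest difference. Its level was 25.1 CPM (24.0 to 26.3) at early anagen against 554 CPM (548 to 560) in the bulb, a 22.1-fold ratio (log2 4.46, 4.40 to 4.53). Of all 8020 genes, 99.6% had a lower ratio. With early-anagen cells in G1 only, the log2 ratio was 3.66.

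*Slc45a2*, which encodes a transporter of the proton-sugar symporter family that also counters melanosomal acidity, was at 264 CPM (260 to 267) at early anagen and at 1822 CPM (1811 to 1833) in the bulb, a log2 ratio of 2.79 (2.77 to 2.81). *Tpcn2*, which encodes a cation channel of endolysosomes and melanosomes that limits pigmentation, was barely captured. It had 173 UMIs, or 2.28 CPM (1.96 to 2.65), at early anagen and 280 UMIs, or 5.01 CPM (4.44 to 5.63), in the bulb. Its log2 ratio of 1.13 (0.85 to 1.41) went under 2-fold with cells thinned to 5000 UMIs (0.93) and with early-anagen cells in G1 only (0.90), and 6 rather than 7 members were then over 2-fold higher.

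The 2 members of the potassium-dependent sodium-calcium exchanger family differed widely in level. *Slc24a5*, which encodes an exchanger of intracellular membranes needed for melanosome maturation, had the highest level of the 8 genes in both libraries, at 946 CPM (939 to 953) and 4454 CPM (4437 to 4472). *Slc24a4*, linked by common variants to hair and eye colour in people, was at 18.7 CPM (17.8 to 19.7) and 177 CPM (173 to 180). The ratio of *Slc24a5* to *Slc24a4* UMIs was 50.5 at early anagen and 25.2 in the bulb, since the log2 ratio between the libraries was 2.23 (2.22 to 2.25) for *Slc24a5* and 3.24 (3.16 to 3.32) for *Slc24a4*. With early-anagen cells in G1 only, that of *Slc24a4* was 2.52.

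*Trpm1*, a cation channel gene of melanocytes and retinal bipolar cells whose expression is a mark of melanocyte differentiation, followed *Slc24a5* closely. It was at 708 CPM (702 to 714) at early anagen and 4197 CPM (4180 to 4214) in the bulb, a log2 ratio of 2.57 (2.55 to 2.58). *Trpm1* and *Slc24a5* together took 82.7% of the UMIs of the 8 genes at early anagen and 76.9% in the bulb.

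*Mfsd12*, which encodes the importer of cysteine into melanosomes, was low in both libraries, at 11.5 CPM (10.8 to 12.3) and 30.5 CPM (29.0 to 32.0), with a log2 ratio of 1.40 (1.28 to 1.52). *Atp7a*, the copper-transporting ATPase that loads tyrosinase, was the exception in direction. Early-anagen McSCs had 23.7 CPM (22.6 to 24.9) of it and the bulb cells 13.5 CPM (12.6 to 14.5), a log2 ratio of -0.81 (-0.94 to -0.69), which lay between -1.08 and -0.50 under all alternatives tried. Of all 8020 genes, 33.2% had a lower ratio. The order of levels was *Slc24a5*, *Trpm1*, *Slc45a2*, *Oca2*, *Atp7a*, *Slc24a4*, *Mfsd12* and *Tpcn2* at early anagen, where only the neighbours *Oca2* and *Atp7a* had overlapping intervals. In the bulb *Slc24a4* and *Mfsd12* stood above *Atp7a*, and no neighbours overlapped. TMM scaling added 0.31 to every log2 ratio, and a total without mitochondrial, ribosomal protein, pigment index and member genes took 0.15 away, which put *Tpcn2* under 2-fold and changed no direction.

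Keratin-rich cells of the same sorts gave the background. In the early-anagen library, 77 cells with at least 10 UMIs of *Krt10* and *Krt14* and fewer UMIs of *Dct* and *Pmel* had a median of 34423 UMIs. The bulb held 2 such cells, so 38 cells with at least 10 UMIs of the hair follicle genes *Tchh*, *Krt17* and *Krt35*, and fewer of *Dct* and *Pmel*, were used in their place (median of 11242.5 UMIs), 16 of which also met the melanocyte gate. *Oca2* and *Slc24a4* had 1 UMI each in the early-anagen keratinocyte gate, or 0.331 CPM. *Slc24a5*, *Slc45a2* and *Trpm1* were at 50.9, 14.9 and 26.8 CPM there, between 3.78% and 5.64% of their level in McSCs. *Mfsd12* was at 2.31 CPM (0.930 to 4.77), or 20.1%. *Tpcn2* was at 1.32 CPM (0.360 to 3.39), or 57.9%, an interval that held its level in McSCs. In the bulb hair keratin gate *Tpcn2* had 0 UMIs, with an upper limit of 8.81 CPM that lay above its level in bulb melanocytes. *Atp7a* was at 10.6 CPM (7.24 to 14.9) in these keratinocytes, 44.6% of its level in McSCs, and at 9.56 CPM (2.60 to 24.5) in the bulb hair keratin gate, an interval that held the level of bulb melanocytes. In the hair keratin gate *Slc24a4* was at 16.7 CPM (6.72 to 34.5), 9.46% of its level in bulb melanocytes, and *Oca2* at 4.78 CPM (0.579 to 17.3).

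Detection per cell was compared after every cell had been thinned at random to 5000 UMIs. *Oca2* was then found in 7.68% (6.72 to 8.74) of the McSCs against 86.8% (85.7 to 87.9) of the bulb cells, and *Slc24a4* in 7.65% (6.69 to 8.70) and 55.8% (54.2 to 57.4). Both were in 0 of 77 early-anagen keratinocytes, which allows a share of up to 3.90%, and in 2 of the 38 bulb hair keratin cells. These genes thus separated the libraries most.

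*Slc24a5*, *Trpm1* and *Slc45a2* were already found in most early-anagen McSCs, in 86.5% (85.1 to 87.7), 65.7% (63.9 to 67.4) and 67.3% (65.5 to 69.0) of cells, and in at least 99.4% of bulb melanocytes. The same genes were detected in 11.7%, 9.09% and 9.09% of early-anagen keratinocytes and in 18.4%, 28.9% and 5.26% of bulb hair keratin cells at this depth. *Mfsd12* was found in 5.39% (4.58 to 6.29) of early-anagen and 14.4% (13.3 to 15.5) of bulb cells, and *Atp7a* in 10.8% (9.68 to 12.0) and 6.35% (5.59 to 7.18). The share of *Atp7a* in bulb melanocytes cannot be told apart from the 5.26% (0.644 to 17.7) of the hair keratin gate. Of the 38 cells in that gate, 16 also met the melanocyte gate. Whether *Atp7a* UMIs in the keratin gates were background or those cells' own transcripts was not tested. *Tpcn2* was found in 1.22% (0.847 to 1.70) and 2.25% (1.80 to 2.78), shares that the upper limits of both keratin gates exceed.

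Without thinning, the shares in early-anagen McSCs and bulb melanocytes were 16.3% and 96.2% for *Oca2*, 23.3% and 85.3% for *Slc24a4*, 95.9% and 99.5% for *Slc45a2*, and 82.7% and 99.6% for *Trpm1*. They were 97.7% and 99.7% for *Slc24a5*, 5.96% and 7.02% for *Tpcn2*, 24.3% and 34.0% for *Mfsd12*, and 42.7% and 17.8% for *Atp7a*. At 5000 UMIs the typical McSC had 3 of the 8 genes detected and the typical bulb melanocyte 5 (medians), against 0 in both keratin gates. At least 6 of the 8 were detected in 0.503% (0.275 to 0.842) of McSCs and 11.7% (10.7 to 12.8) of bulb melanocytes, and all 8 were detected in 0 cells of either library at this depth, which allows shares of up to 0.108% and 0.0803%.

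**Figure D2:**
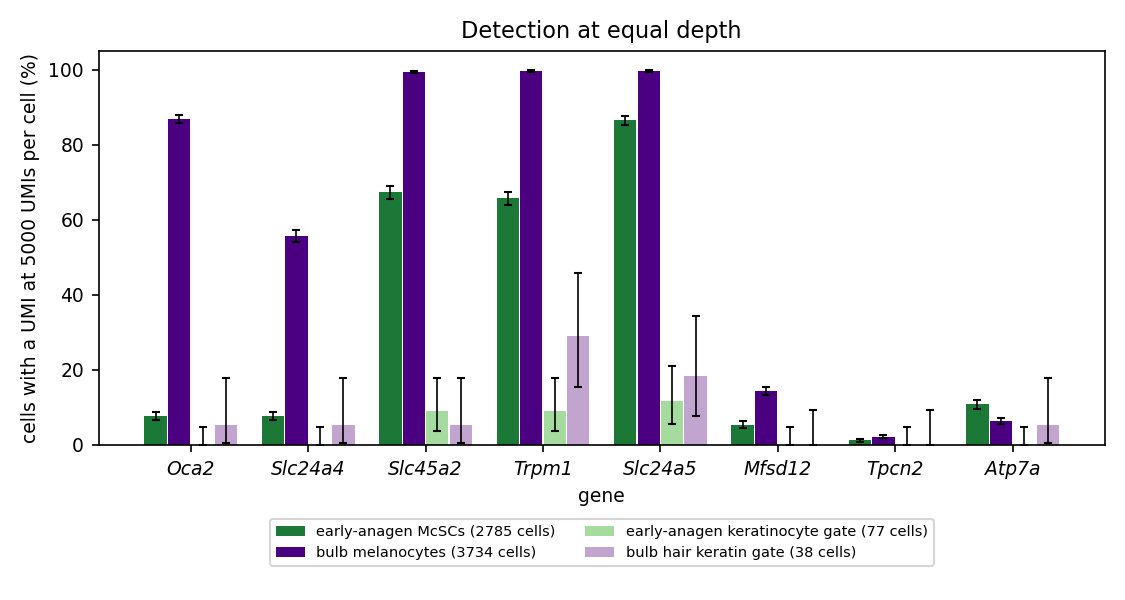
Share of cells (%) with at least 1 UMI of each gene after thinning every cell to 5000 UMIs, with Clopper-Pearson 95% intervals, in the same 4 groups of cells. *Oca2* and *Slc24a4* were at 7.68% and 7.65% of early-anagen McSCs against 86.8% and 55.8% of bulb melanocytes, while *Slc24a5* was found in most cells of both.

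Cell-to-cell spread differed between the libraries. At 10000 UMIs, *Trpm1* had between 0 and 19 UMIs in the central 80% of early-anagen McSCs (median 3, maximum 70) and between 27 and 58 in bulb melanocytes (median 42). *Slc24a5* ranged from 1 to 21 UMIs (median 7) and from 31 to 59.3 (median 44). *Oca2* was at 0 in most early-anagen McSCs and reached at most 10 UMIs, with a variance 3.35 times its mean, whereas in the bulb its median was 5. For *Trpm1* the variance was 12.1 times the mean at early anagen and 3.84 times in the bulb. *Tpcn2* had at most 1 UMI and *Mfsd12* at most 3 in these early-anagen McSCs.

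The spread at early anagen allowed the cells to be ordered. Each McSC, thinned to 10000 UMIs, was ranked by a pigment index of the enzyme genes *Tyr* and *Tyrp1*, the fibril gene *Pmel* and the melanosome gene *Mlana*, which holds none of the 8 genes. The midpoint of a gene is the percentile of ranked cells below which 50% of its UMIs lay. The order is one of cells in a single snapshot. The median midpoint of 7445 genes that reached 10 CPM at early anagen was 50.3, and 90% of them lay between 41.0 and 59.2.

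*Oca2* was the latest of the 8 genes and the latest of the 7445, with a midpoint of 93.8 (92.4 to 94.4). *Slc24a4* came next among the 7445, at 87.6 (85.6 to 89.3). *Trpm1*, at 82.5 (82.0 to 83.0), was behind 3 of the 7445 genes, *Oca2* and *Slc24a4* among them. Further down, *Slc24a5* was at 72.8 (72.2 to 73.4) and *Slc45a2* at 63.6 (62.5 to 64.7), with 30 and 143 genes later than them.

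*Tpcn2* had a midpoint of 70.7, but with 45 UMIs its interval ran from 45.6 to 74.1 and held those of 4 other members. *Atp7a*, at 56.6 (53.6 to 61.0), and *Mfsd12*, at 52.1 (46.0 to 57.7), had overlapping intervals, and the interval of *Mfsd12* held the 50.3 of all genes. These intervals count each UMI as independent, so for genes with several UMIs in 1 cell they are narrow.

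**Figure D3:**
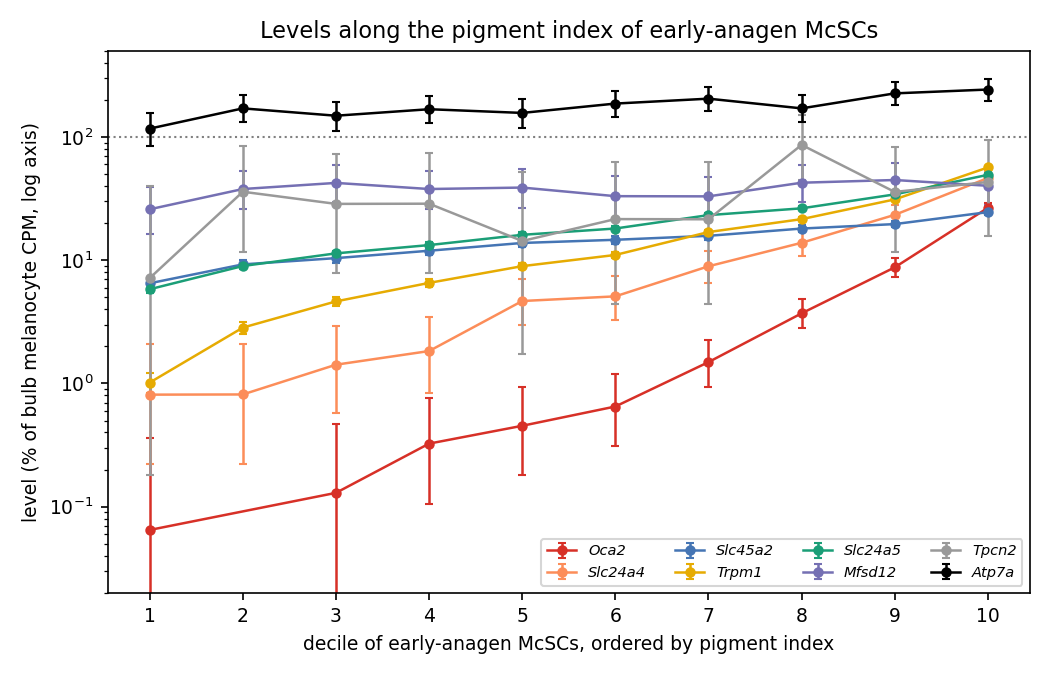
Level of each gene in deciles of early-anagen McSCs ordered by the pigment index, as a percentage of its CPM in bulb melanocytes (log axis), with exact 95% Poisson intervals and a dotted line at 100%. *Oca2* stayed under 1% through decile 6 and ended at 26.6%, and had 0 UMIs in decile 2 (no point), *Atp7a* lay above 100% throughout, with an interval that crossed it in decile 1, and *Tpcn2* (45 UMIs) had the widest intervals.

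*Oca2* had 1, 0, 2, 5, 7, 10, 23, 57, 135 and 409 UMIs in the successive deciles of 278 or 279 cells. It was detected in 0.358% of the cells of the first decile, 5.02% of the seventh, 24.7% of the ninth and 53.6% (47.5 to 59.6) of the last. Only in the last decile did its level pass 10% of that in the bulb. *Slc24a4* had 4, 4, 7, 9, 23, 25, 44, 68, 115 and 228 UMIs over the same deciles, and passed 10% of its bulb level in decile 8.

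*Trpm1* went from 42.7 CPM (35.3 to 51.0) in the first decile to 2371 CPM (2314 to 2429) in the last, and passed 10% of its bulb level in decile 6. *Slc24a5* went from 259 CPM (240 to 278) to 2193 CPM (2138 to 2249) and *Slc45a2* from 118 CPM (106 to 132) to 447 CPM (422 to 472), and both passed 10% in decile 3. The 2 genes had similar percentages of their bulb level up to decile 5, at 16.1% and 13.8% there, and were farther apart later, at 49.2% and 24.5% in the last decile. *Atp7a* was at 15.8 CPM (11.5 to 21.2) in the first decile and 32.7 CPM (26.4 to 40.2) in the last, so that it increased with the index within early-anagen McSCs while bulb melanocytes had less of it. *Mfsd12* was between 7.89 and 13.6 CPM in every decile.

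The decile of early-anagen McSCs highest in the pigment index was also set against the bulb melanocytes. The log2 ratio of the bulb over this decile, at 10000 UMIs per cell in both, was 2.02 (1.93 to 2.10) for *Slc45a2* and 1.91 (1.76 to 2.05) for *Oca2*. It was 1.30 (0.80 to 1.84) for *Mfsd12*, 1.12 (0.93 to 1.32) for *Slc24a4*, 1.03 (0.997 to 1.07) for *Slc24a5* and 0.84 (0.80 to 0.87) for *Trpm1*. For *Tpcn2* the interval held 0 (1.05, -0.11 to 2.52), and for *Atp7a* the ratio was -1.26 (-1.59 to -0.92). The intervals of *Slc45a2* and *Oca2* overlapped here, although their midpoints were 63.6 and 93.8.

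Other measures moved along the index as well. The share of cells scored in S or G2/M was 49.8% in the first decile, 57.2% in the fourth and 10.8% in the last. The median mitochondrial share went from 2.83% to 3.63%. All 61 cells of low pigment signal, which is defined by the same 4 genes as the index, were in the first decile. In G1 cells alone the midpoints of *Oca2*, *Slc24a4* and *Trpm1* were 92.1, 85.3 and 83.1, and without the 61 cells they were 93.5, 87.3 and 82.3. Under each of 10 alternative orders and selections *Oca2* was latest and *Slc24a4* followed it.

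Among bulb melanocytes ranked by the same index, the midpoints were compressed to between 46.6 and 59.3. *Oca2* was again latest at 59.3 (58.6 to 59.8), followed by *Slc24a4* at 56.7 (55.5 to 57.7). *Oca2* was at 230 CPM (214 to 247) in the lowest decile of bulb melanocytes and at 760 CPM (731 to 790) in the highest, and *Slc24a4* at 102 CPM (91.5 to 114) and 206 CPM (191 to 222). *Mfsd12* and *Atp7a* had overlapping intervals between these deciles, at 38.6 and 30.2 CPM and at 11.2 and 11.6 CPM.

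Co-detection asked whether the genes appeared in the same early-anagen McSCs. At 10000 UMIs, *Oca2* was detected in 284 cells, *Slc24a4* in 373 and *Trpm1* in 2094 of 2785. *Oca2* and *Slc24a4* were found together in 128 cells, where independence gave 38.0, a ratio of 3.37. *Slc24a4* was detected in 45.1% (39.2 to 51.1) of Oca2+ cells and in 9.80% (8.66 to 11.0) of Oca2- cells. Of 4677 genes found in 5 to 25% of these cells, a range chosen after the values were seen, *Slc24a4* had the highest ratio with *Oca2*, and the median was 1.02. With the expected number summed over terciles of the pigment index, the ratio of *Slc24a4* with *Oca2* was 1.58, and the other genes were not compared within terciles. Inside the upper tercile, detection of *Oca2* went from 11.2% in decile 8 to 53.6% in decile 10. That of *Slc24a4* went from 19.1% to 48.6%. Terciles therefore did not hold the index constant, and co-detection at an equal index was not tested.

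*Trpm1* was present in 280 of the 284 Oca2+ cells and in 357 of the 373 Slc24a4+ cells, whereas 1814 cells had *Trpm1* without *Oca2*. No cell had *Oca2* and *Slc24a4* without *Trpm1* (0 of 2785, which allows a share of up to 0.108%). The combination of the trio detected most often was *Trpm1* alone, in 56.9% (55.0 to 58.8) of early-anagen McSCs, followed by none of the trio in 24.1% (22.5 to 25.7). All of the trio were detected in 4.60% (3.85 to 5.44). In bulb melanocytes at the same depth, all of the trio were detected in 76.1% (74.6 to 77.5). *Slc24a5* was detected in all 284 Oca2+ cells, where independence gave 270, and in 94.6% (93.6 to 95.5) of Oca2- cells.

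**Figure D4:**
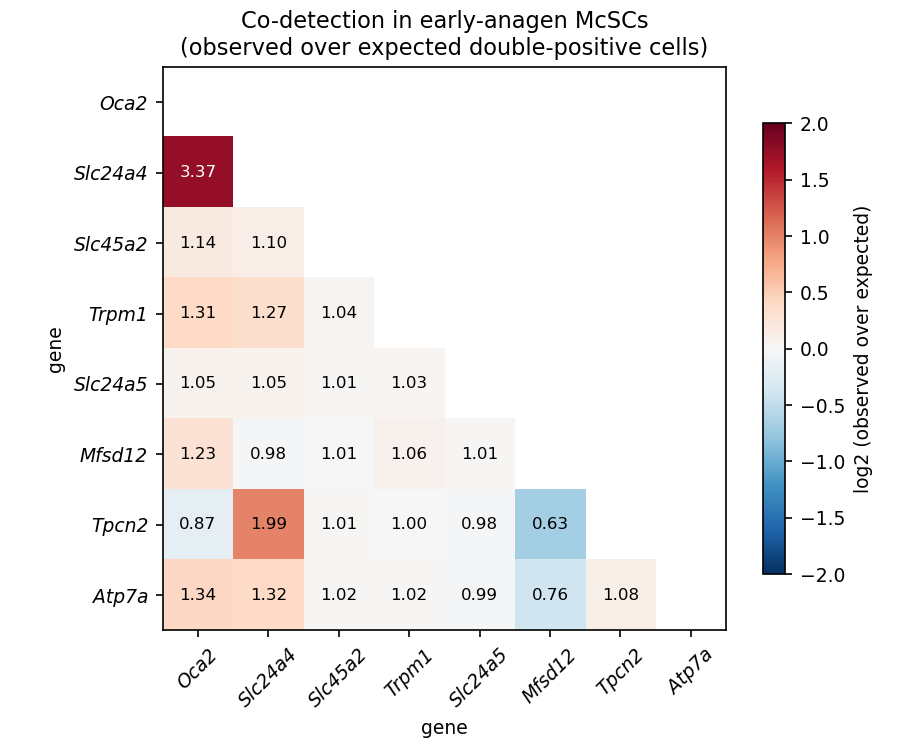
Number of early-anagen McSCs (10000 UMIs per cell) with both genes of a pair, divided by the number that independence gives, with colour on a log2 scale. *Oca2* with *Slc24a4* stood at 3.37, and *Tpcn2* pairs rested on 45 cells.

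Of the 28 pairs, 22 had a ratio above 1, and 19 within terciles of the index. The median was 1.04. Pairs of all genes were not counted in this way, so these counts have no background. Pairs with a gene found in most cells, such as *Slc24a5* (95.2%), cannot lie far above 1. Above 1.5 there was, apart from *Oca2* and *Slc24a4*, only *Slc24a4* and *Tpcn2*, at 1.99 with 12 cells against 6.03, which was 1.48 within terciles and under 1.5 with another random draw of UMIs. *Mfsd12* and *Atp7a* were found together in 46 cells, where independence gave 60.7, but *Atp7a* was in 15.5% (11.6 to 20.2) of Mfsd12+ cells and 21.1% (19.5 to 22.7) of Mfsd12- cells, intervals that overlap. In bulb melanocytes, where the main genes were in nearly every cell, 26 pairs lay between 0.962 and 1.04. The other 2 were *Tpcn2* with *Mfsd12*, at 1.44 (51 cells against 35.5), and *Tpcn2* with *Atp7a*, at 0.791 (14 against 17.7).

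Levels also differed with the number of *Oca2* UMIs left in a cell after thinning to 10000 UMIs. Cells with none left include some that had *Oca2* UMIs before, since 454 cells had one without thinning and 284 at this depth. *Slc24a4* was at 12.2 CPM (10.9 to 13.6) in the 2501 cells with no *Oca2* UMI, at 50.4 CPM (38.9 to 64.2) in the 129 cells with 1, and at 101 CPM (86.1 to 118) in the 155 cells with 2 or more. *Trpm1* was at 506, 1698 and 2559 CPM and *Slc24a5* at 794, 1692 and 2298 CPM in these cells. *Slc45a2* followed, at 244, 373 and 480 CPM. *Mfsd12*, at 11.1, 17.8 and 12.3 CPM, and *Tpcn2*, at 1.64, 1.55 and 1.29 CPM, had overlapping intervals across the 3 sets of cells.

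The genes whose UMIs varied most like those of the members were compared by Pearson's r of log(1 + UMIs) over the 2785 early-anagen McSCs. The candidates were 5276 genes of at least 20 CPM, a limit that *Slc24a4*, *Mfsd12* and *Tpcn2* did not reach. All points come from 1 library at 1 depth, and r is low for sparse genes. For *Slc24a5* the closest were *Trpm1* (0.72), *Mlana* (0.66) and *Tyr* (0.54), and for *Trpm1* they were *Slc24a5* (0.72), *Mlana* (0.70) and *Tyr* (0.58). Among the candidates, *Oca2* was closest to *Trpm1* (0.44), *Slc24a5* (0.37) and *Tyr* (0.36), while its r with *Slc24a4*, which was no candidate, was 0.38. *Slc24a4* was closest to *Trpm1* (0.38), *Oca2* (0.38) and *Tyr* (0.34). *Slc45a2* was closest to *Trpm1* (0.38), *Mlana* (0.37) and the proton pump subunit gene *Atp6v0c* (0.37). For *Tpcn2*, *Mfsd12* and *Atp7a* no gene reached 0.2.

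Cell cycle scoring placed 1637 early-anagen McSCs in G1, 651 in S and 497 in G2/M, with medians of 20051, 33572 and 36527 UMIs before thinning to 10000. *Oca2* and *Slc24a4* had the lowest ratios of cycling to G1 cells among the 8 genes. *Oca2* was at 32.7 CPM in G1, 11.4 in S and 7.85 in G2/M, a log2 ratio of S and G2/M over G1 of -1.73 (-2.04 to -1.44). *Slc24a4* was at 25.8, 10.8 and 7.04 CPM (-1.49, -1.82 to -1.18).

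Both lay over 2-fold lower in cycling cells, as did 1.17% of 7803 genes. Over 2-fold higher were 0 of the 8 members and 5.56% of genes. With cells that had a UMI of the proliferation genes *Mki67* or *Top2a* set against cells with neither, the log2 ratio was -1.25 for *Oca2* and -0.96 for *Slc24a4*, which was then within 2-fold. By phase, the log2 ratio of S and G2/M over G1 was -0.68 (-0.73 to -0.64) for *Trpm1*, -0.48 (-0.72 to -0.25) for *Atp7a*, -0.38 (-0.45 to -0.31) for *Slc45a2* and -0.38 (-0.41 to -0.34) for *Slc24a5*. The 4 index genes, by comparison, lay between -0.60 and -0.24. *Mfsd12* was the 1 member higher in cycling cells, at 9.71 CPM in G1, 13.1 in S and 15.1 in G2/M (0.52, 0.20 to 0.85), and the interval of *Tpcn2* held 0. The median of the 8 genes was -0.58 and that of all genes -0.04.

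**Figure D5:**
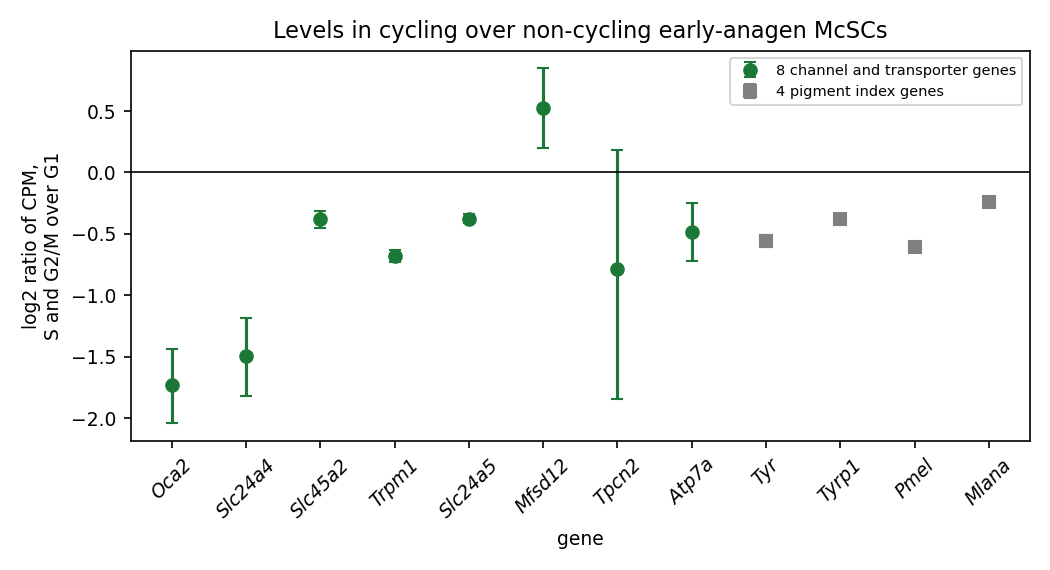
Log2 ratio of CPM in S and G2/M cells over G1 cells among early-anagen McSCs (10000 UMIs per cell), with exact 95% intervals, for the 8 genes (circles) and the 4 genes of the pigment index (squares). *Oca2* (-1.73) and *Slc24a4* (-1.49) lay lowest and *Mfsd12* (0.52) was the 1 gene above 0.

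As cycling cells were scarce at the top of the pigment index, the ratio was also taken within terciles of the index. The direction then changed for several genes. *Trpm1* was higher in cycling cells in the lower and middle terciles (0.62, 0.45 to 0.79, and 0.67, 0.58 to 0.76) and lower in the upper tercile (-0.34, -0.40 to -0.28). *Slc24a5* behaved alike, at 0.43, 0.27 and -0.23. *Slc45a2* was at 0.13 (-0.02 to 0.27), -0.20 (-0.32 to -0.08) and -0.28 (-0.41 to -0.16), and every interval of *Tpcn2* held 0.

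*Oca2* had 2 UMIs in cycling and 1 in G1 cells of the lower tercile, 29 against 12 in the middle tercile (1.42, 0.40 to 2.52) and 82 against 523 in the upper tercile (-0.89, -1.24 to -0.55). *Slc24a4* was lower in cycling cells of the upper tercile only (-1.11, -1.56 to -0.68), with intervals that held 0 in the others. *Mfsd12* had positive values in each tercile (0.52, 0.75 and 0.61), the first with an interval that held 0. *Atp7a* had negative values in each (-0.48, -0.12 and -0.66), the second with an interval that held 0. Within a tercile, cycling and G1 cells were not matched further on the index.

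Other genes of ion, metal and amino acid transport set the members in context. Of 16 paralogs, 3 reached 10 CPM in either library. *Trpm7*, a broadly expressed channel kinase of the same family as *Trpm1*, was lower in the bulb, at 104 and 35.5 CPM (log2 ratio -1.55, -1.62 to -1.47). *Slc8b1*, the mitochondrial sodium-calcium exchanger, and *Tpcn1*, the other endolysosomal channel of the *Tpcn2* family, were within 2-fold (0.30 and 0.48), and *Tpcn1* had more UMIs than *Tpcn2* in both libraries (14.6 and 20.4 CPM). The exchanger paralogs *Slc24a1*, *Slc24a2* and *Slc24a3* had 1, 27 and 4 UMIs at early anagen and 0 in the bulb. The copper ATPase paralog *Atp7b* had 3 and 0 UMIs.

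Of 20 other channels and transporters of endosomes, lysosomes or melanosomes, 16 reached 10 CPM. Among these 7 were over 2-fold higher in the bulb and 1 lower, with a median log2 ratio of 0.92. Over all 8020 genes, 16.3% were higher and 28.7% lower by this limit, with a median of -0.19. *Tmem175*, a lysosomal potassium and proton channel, had a ratio of 1.85 (1.72 to 1.97), the iron transporter *Slc11a2* 1.77 (1.64 to 1.90) and *Ctns*, the cystine exporter of lysosomes, 1.53 (1.42 to 1.65). *Mcoln2*, a mucolipin cation channel, went the other way, with 952 UMIs at early anagen and 12 in the bulb (-5.87, -6.83 to -5.06).

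Copper and cystine handling genes, 11 of 11 measured, had 6 over 2-fold higher and 0 lower, with a median log2 ratio of 1.14. The shares over all 8020 genes were 16.3% and 28.7%, with a median of -0.19. *Slc3a2*, the heavy chain shared by several amino acid transporters, was at 368 and 2289 CPM (2.64, 2.62 to 2.66). The cystine importer *Slc7a11*, which pairs with it, was at 9.91 and 43.3 CPM (2.13, 2.01 to 2.25). The copper importer *Slc31a1* was at 31.7 and 180 CPM (2.51, 2.44 to 2.57), and its relative *Slc31a2* at 7.44 and 36.7 CPM (2.30, 2.17 to 2.44). *Slc31a1* and *Slc31a2* were thus higher in the library in which *Atp7a* was lower, and a link between these differences was not tested.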

How the data were processed

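The 2 droplet 3′ scRNA-seq libraries of GFP-sorted mouse skin cells were used, 1 per condition, grouped by their labels. Raw counts of UMIs, by gene and cell barcode, were deposited by the authors and had been made with Cell Ranger 6.0.1 against mm10 according to the submitters' processing notes, without normalization. The libraries held 116800173 UMIs in 11010 early-anagen barcodes and 58161397 in 4327 bulb barcodes, and the lowest barcode totals were 500 and 504. The counts were checked to be whole numbers. The UMI and mitochondrial limits follow the methods of the study, and *Dct*, *Krt10* and *Krt14* selected melanocytes. No doublet caller was run. Leaving out the 10% of cells with the most UMIs was tried instead, but it does not single out doublets. At early anagen, cells in S and G2/M also had more UMIs than those in G1 (medians of 33572, 36527 and 20051).

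UMIs of the kept cells were summed and scaled by their total to CPM (Python 3.11.15, numpy 2.4.6, scipy 1.17.1, pandas 2.3.3). Ratios have the exact 95% interval of 2 Poisson sums and shares have Clopper-Pearson intervals. Shares at 0 carry the limit that 3 counts give. Reads came from captured molecules with identifiers, and intervals cover counting error only. Thinning drew UMIs at random without replacement. Phases were scored with Seurat 5.3.0 in R 4.3.3 (43 S and 54 G2/M genes), and TMM factors came from edgeR 4.0.16. Counts of genes past 2-fold use genes that reached 10 CPM in at least 1 group, and were read beside the same over all such genes. The calculations were tested on simulated data.

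Coordinates are from GENCODE on GRCm38, and promoter windows from RefSeq on GRCm38.p6. The genes named are the 8 members, the 4 pigment index genes, paralogs of the members, the 4 genes of each list with the largest ratio, and the 3 genes most like each member where r reached 0.2. Members, lists and tests were chosen with earlier results of these data known. The hair keratin gate and the removal of cells of low pigment signal were chosen after seeing the data. The alternatives were other limits on UMIs, keratins, *Dct* and mitochondrial share, thinning depths and draws, scalings, index genes and phase definitions.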

Additional observations from a re-analysis of the deposited data

Results flagged for a closer look

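The early-anagen library held 3266 barcodes that passed the other limits but had no more than 10000 UMIs (median 1955.5), and the comparisons did not use them. All 8 genes had UMIs there, with 7889 for *Slc24a5* (855 CPM), 4950 for *Trpm1* (536 CPM) and 1767 for *Slc45a2* (191 CPM). *Atp7a* had 181 UMIs (19.6 CPM) and *Oca2* 176 (19.1 CPM, 16.4 to 22.1). *Mfsd12* had 97 UMIs (10.5 CPM), *Slc24a4* 87 (9.42 CPM, 7.55 to 11.6) and *Tpcn2* 22 (2.38 CPM). Each count was above 3, the limit that a count of 0 allows, which is not a measure of background. The level of *Tpcn2* lay inside its interval in the early-anagen keratinocyte gate (0.360 to 3.39 CPM) and cannot be set apart from background. The bulb library had 81 such barcodes, with *Oca2* at 446 CPM (363 to 542).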

How the results depend on the processing

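No paired analysis was possible because each condition was 1 library. No member's log2 ratio of bulb to early anagen, or of cycling to G1 cells, changed sign under the alternatives, apart from the phase ratios within terciles of the pigment index given with the results. The median ratio of the bulb to early anagen, 2.40 on the log2 scale, became 2.47 with cells thinned to 5000 UMIs, 2.43 with no UMI minimum beyond that of the deposited barcodes, 2.47 with *Krt10* and *Krt14* at 0, 2.37 with up to 10% mitochondrial UMIs, 2.38 without the 10% of cells with the most UMIs, 2.05 with early-anagen cells in G1 only, 2.39 without cells of low pigment signal, 2.47 as the mean of each cell's CPM, 2.71 with TMM factors and 2.25 with the reduced total. At least 6 of 8 genes were detected in 2.37% of early-anagen and 29.0% of bulb cells at 10000 UMIs, in 11.3% and 43.1% without thinning, and in 0% and 0.187% when 2 UMIs were asked for. The early-anagen share was 0.165% with no keratin UMI and 0.855% in G1 cells. With 2 UMIs asked for, 1 rather than 3 genes were in over 50% of early-anagen cells. Pairs above 1.5 were 1 rather than 2 within terciles and with another draw. Of the 28 orders between members along the index, between 25 and 28 were kept, and *Tpcn2* came before *Slc45a2* at 5000 UMIs (60.1 against 63.4), in G1 cells (62.7 against 63.2) and with another draw (59.5 against 64.0). The cause of these shifts was not tested. Depth limits *Tpcn2*, *Mfsd12* and *Atp7a*, which had 45, 319 and 673 UMIs in the ordered cells.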
